A study of Mus musculus with 43 samples.

Results

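Oxidative phosphorylation is carried out by protein complexes of the inner mitochondrial membrane, and most of their subunits are encoded in the nucleus. The genes described here are the nuclear subunits of complexes I, III, IV and V, taken as the protein-coding genes of the read-count table whose mouse symbol begins with Ndufa, Ndufb, Ndufc, Ndufs or Ndufv and a digit, with Uqcr, with Cox4 to Cox8, or with Atp5. The rule took 81 of the 54532 genes in the table, of which 37 belong to complex I, 8 to complex III, 18 to complex IV and 18 to complex V (ATP synthase). All 37, all 8, 16 and 17 of these had enough counts to be tested. Of the remaining 3, Cox7b2 reached at most 0.288 CPM (counts scaled to library size) and had no count in 24 libraries, and Cox8c and a second gene of the symbol Atp5o had no count in any of the 43 libraries, where 0 counts allow a level of up to 0.139 CPM in the largest and 0.202 CPM in the smallest library.

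The study asked whether short-chain fatty acids (SCFA) alter laser-induced choroidal neovascularization (CNV), a mouse model of wet macular degeneration, differently in the sexes. All mice were C57BL/6J, 9 weeks old, and received the laser lesion. Controls had the lesion only, while the SCFA groups drank water with 67.5 mM acetate, 40 mM propionate and 25 mM butyrate as sodium salts from 3 weeks before the lesion to the end. The grams per litre printed beside these concentrations put butyrate above propionate, so the doses of those salts are uncertain. Each library was a pool of 2 whole retinas from 2 animals of 1 group, and males and females were sampled on days 3, 7 and 14 after the laser (days post laser, dpl), which gave 12 groups of 3 to 5 libraries. The pooled tissue held all retinal cell types, so fewer cells of a type and less RNA per cell cannot be told apart.

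Complex I takes electrons from NADH, complex III passes them from ubiquinol to cytochrome c, complex IV gives them to oxygen, and the proton gradient that these complexes build drives complex V. Each complex joins a few catalytic subunits, some of them encoded in mitochondrial DNA, to many small accessory subunits. Photoreceptors hold dense mitochondria in their inner segments and rank among the most oxygen-demanding cells of the body. Nuclear subunit genes are known targets of the transcription factors NRF1, GABPA, YY1 and the estrogen-related receptors (ERR), with the coactivator PGC-1alpha, the product of Ppargc1a.

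Promoter windows from RefSeq on GRCm38.p6, 250 bases before to 50 bases after the start, were found for 65 of the 80 member symbols. Both strands were searched for the letters GCATGCGC (NRF1), CCGGAAG (GABPA), AAGATGGC (YY1) and TCAAGGTCA (ERR). NRF1 letters were in the windows of 13.8% of these members against 3.05% of 27025 genes, GABPA letters in 21.5% against 9.93%, and YY1 letters in 15.4% against 3.19%. ERR letters were in 1.54% of members, a single gene, Atp5g3, against 0.466% of genes. The 27025 genes are all symbols with a window, not only genes with enough counts to be tested. These shares therefore do not compare members with other expressed genes. NRF1 letters read almost the same on both strands, so 1 place can match on both. A match describes letters, not a bound site, and no YY1 match lay wholly upstream of both the RefSeq and the GENCODE start. Of the 9 members with an NRF1, GABPA or ERR match upstream of both starts, 6 are shown by a stretch of 100 bases. The stretches are printed 5′ to 3′ on the gene's strand, to show what the windows of each complex hold. Capitals mark the match, and positions count back from the RefSeq start.
Ndufa11, complex I accessory subunit, chr17:56717662-56717761, plus strand, NRF1: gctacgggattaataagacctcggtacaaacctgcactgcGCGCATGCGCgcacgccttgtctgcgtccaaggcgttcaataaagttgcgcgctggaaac
Ndufb6, complex I accessory subunit, chr4:40279559-40279658, minus strand, GABPA: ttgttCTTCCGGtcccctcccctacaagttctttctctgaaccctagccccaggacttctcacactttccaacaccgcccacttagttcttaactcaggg
Uqcr11, complex III small subunit, chr10:80406831-80406930, minus strand, GABPA: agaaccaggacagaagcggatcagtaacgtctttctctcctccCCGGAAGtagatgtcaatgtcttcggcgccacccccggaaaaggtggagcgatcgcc
Cox6a1, complex IV subunit, chr5:115349026-115349125, minus strand, NRF1: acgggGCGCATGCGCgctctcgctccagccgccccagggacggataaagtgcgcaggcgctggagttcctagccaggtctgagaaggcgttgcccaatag
Atp5g3, c subunit of complex V, chr2:73911327-73911426, minus strand, ERR: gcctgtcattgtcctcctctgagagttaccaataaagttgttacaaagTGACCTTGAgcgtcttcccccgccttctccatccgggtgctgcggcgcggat
Atp5l, g subunit of complex V, chr9:44920888-44920987, minus strand, NRF1 and GABPA: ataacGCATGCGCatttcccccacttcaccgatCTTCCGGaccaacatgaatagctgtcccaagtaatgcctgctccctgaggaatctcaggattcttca

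The match began 60 bases before the start in Ndufa11, 66 in Uqcr11 and 52 in Atp5g3, and lay farther out in the other printed stretches. None of these matches was tested for binding.

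The smallest library held 14826957 counts, the median one 17683615 and the largest 21507527. The first 31 and the last 12 columns of the table form 2 runs of libraries that the labels do not explain, and the run was kept as a block in every test. One library labelled female, control 7 dpl replicate 2, held Y-linked transcripts at 40.7 CPM against 136 CPM in the lowest male library and 0 in the other 21 female libraries, and results were also computed without it. Male SCFA 7 dpl replicates 1 and 3 stood apart in mitochondrial mRNA and glial markers, female SCFA 3 dpl replicate 2 in lens markers at 257827 CPM, and female SCFA 3 dpl replicate 1 in striated muscle markers at 146 CPM. These 5 libraries were omitted together as an alternative chosen after the data had been seen. Markers of other tissues also spread widely in the first run. The myelin genes Mobp and Mbp reached 145 and 501 CPM, against first-run medians of 0.185 and 19.6 CPM. The pigment epithelium genes Rpe65 and Ttr ran from 8.93 to 166 and from 58.7 to 891 CPM. Whether those high values lay in the 5 omitted libraries is not given here, and their part in the subunit values was not tested. Rod markers summed to between 57059 and 116163 CPM in all libraries, so no library labelled retina lacked them.

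Together the subunits took 0.817% to 1.64% of the counts of a library, a summed level of 7617 to 17167 CPM. Levels are compared between genes per kilobase of transcript, as the median over the 43 libraries. In complex I they ran from 2.05 CPM per kb for Ndufa4l2 to 541 for Ndufa4, now placed with complex IV by many authors, with a median of 125 over the members. Complex III members ran from 68.7 CPM per kb for the core protein Uqcrc2 to 429.7 for the hinge protein Uqcrh, which binds cytochrome c1, with a median of 219. Complex IV had the widest span, from 0.789 for Cox6a2 to 738 for Cox8a, with a median of 176. Complex V ran from 9.40 for Atp5s, the coupling factor B, to 619 for Atp5b, the catalytic beta subunit, with a median of 206.

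The catalytic and core subunits differed less than 2-fold between the lowest and the highest of the 12 groups. Ndufs1, the iron-sulfur subunit at the entry of electrons into complex I, had group means from 91.8 CPM ± 1.2 (SD, n = 3, male control 7 dpl) to 110.6 CPM ± 6.3 (SD, n = 5, female SCFA 3 dpl). Ndufv1, which binds NADH, ran from 192.9 ± 43.6 CPM in female control 14 dpl to 265.8 ± 32.3 CPM in female control 7 dpl (SD, n = 3 each). In each of the others described here female control 14 dpl was lowest or male control 14 dpl highest. The complex III core protein Uqcrc1 had 273.6 ± 43.4 CPM in the former group and 378.2 ± 22.02 CPM in the latter (SD, n = 3 each). Cox5a, a structural subunit of complex IV, had 70.9 ± 11.2 and 104.9 ± 9.3 CPM in the same groups (SD, n = 3 each). Of the 3 libraries of female control 14 dpl, 2 are of the second run. Uqcrfs1, the Rieske iron-sulfur protein, ran from 120.5 ± 34.4 CPM in female control 14 dpl (SD, n = 3) to 173.5 ± 34.0 CPM in female SCFA 3 dpl (SD, n = 5). The alpha subunit of ATP synthase, Atp5a1, ran from 630.7 ± 122.6 CPM in male SCFA 14 dpl to 925.4 ± 71.0 CPM in male control 14 dpl (SD, n = 3 each). Atp5b ran from 1022.9 ± 231.1 to 1633.3 ± 105.0 CPM in the same groups (SD, n = 3 each).

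Several subunits exist as isoforms from separate genes, and in most sets 1 form prevailed. Cox4i1, the general form of the regulatory subunit 4, had a median of 463 CPM per kb against 57.8 for Cox4i2, a form tied to low oxygen in lung and other tissues. Cox6a1 had 413 CPM per kb against 0.789 for Cox6a2, the heart and muscle form. Cox6b1 had 227 CPM per kb against 17.2 for Cox6b2, known from testis. The muscle forms Cox7a1 and Cox8b were likewise low, at 9.83 and 11.1 CPM per kb, beside 178 for Cox7a2 and 738 for Cox8a. Cox7a2l stood at 174 CPM per kb, near Cox7a2. Cox7b had a median level of 124 CPM, while its partner Cox7b2 was the gene with no count in 24 libraries. Ndufa4 had 541 CPM per kb against 2.05 for Ndufa4l2, a hypoxia-induced relative. The c subunit genes Atp5g1, Atp5g2 and Atp5g3 encode the same mature protein and had 27.4, 146 and 363 CPM per kb. The value for Atp5g1 rests on a principal transcript longer than that of any other member, which lowers a level per kilobase.

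**Figure D1:**
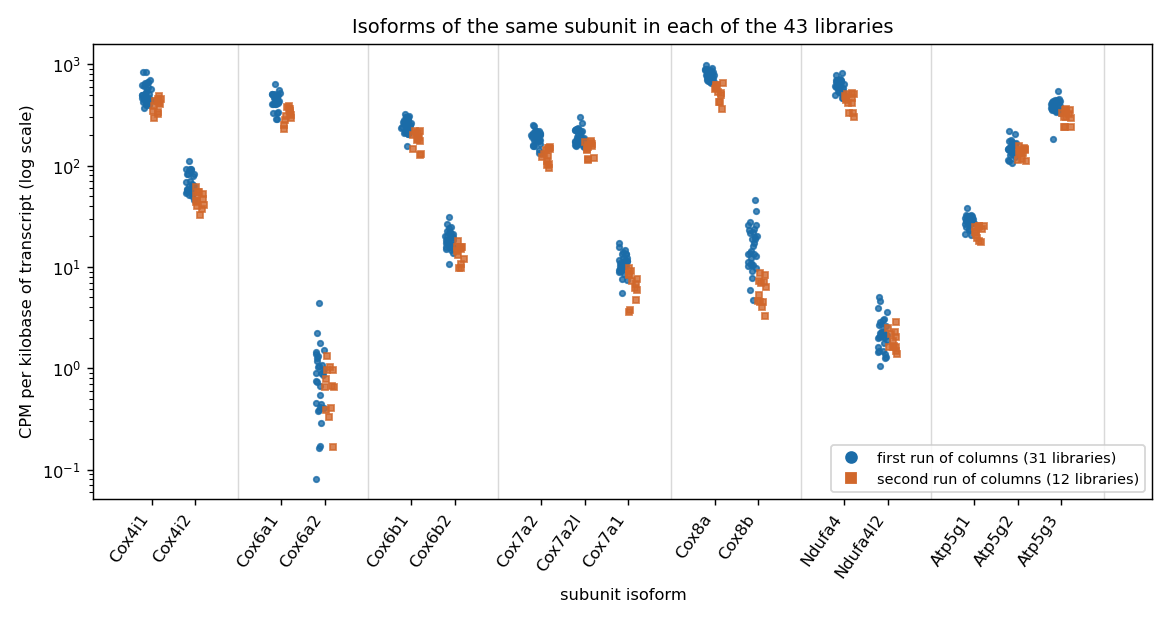
Level of each isoform in CPM per kilobase of transcript (log scale) in each of the 43 libraries, with circles for the first and squares for the second run of columns. Cox6a2 and Ndufa4l2 lie lowest, with medians of 0.789 and 2.05, and Cox8a highest, with a median of 738.

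The mean levels of the complexes moved together across libraries. A score was taken for each complex as the mean of log2(CPM + 1) over its tested members. The score over all tested members was between 6.37 and 7.15 in the 31 libraries of the first run (median 6.81) and between 5.89 and 6.54 in the 12 of the second run (median 6.34). Female control 14 dpl replicate 2 had the lowest score in every complex. The library with Y-linked transcripts, female control 7 dpl replicate 2, had the highest in complexes I, III and V. Within a run, scores of any pair of complexes had a Pearson correlation of at least 0.93 over libraries (Spearman at least 0.92), as a description over 31 or 12 points that share library preparation and scaling, and between 0.90 and 0.99 without the 2 libraries farthest from the median. The members' score also followed the score of 76 cytosolic ribosomal proteins, with r = 0.88 over the 31 libraries and 0.99 over the 12 (0.91 and 0.99 without the 2 farthest). Against the mean deviation of long transcripts (4000 bases and over) r was −0.88 and −0.98 in the same libraries (−0.82 and −0.97 without the 2 farthest). Against that of short transcripts (under 1000 bases) r was 0.60 and 0.92 (0.41 and 0.84 without the 2 farthest). The share of counts from the 13 mitochondrial mRNAs, which encode the other subunits of the same complexes, followed the score in the second run (r = 0.90, and 0.79 without the 2 farthest) and hardly in the first (r = 0.07). Least variable within group and run was Ndufs1, with an SD of 0.0823 on the log2 scale. Most variable was Atp5k, the e subunit of ATP synthase, with an SD of 0.718. That SD includes a far-off value in female SCFA 7 dpl replicate 3, described below.

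**Figure D2:**
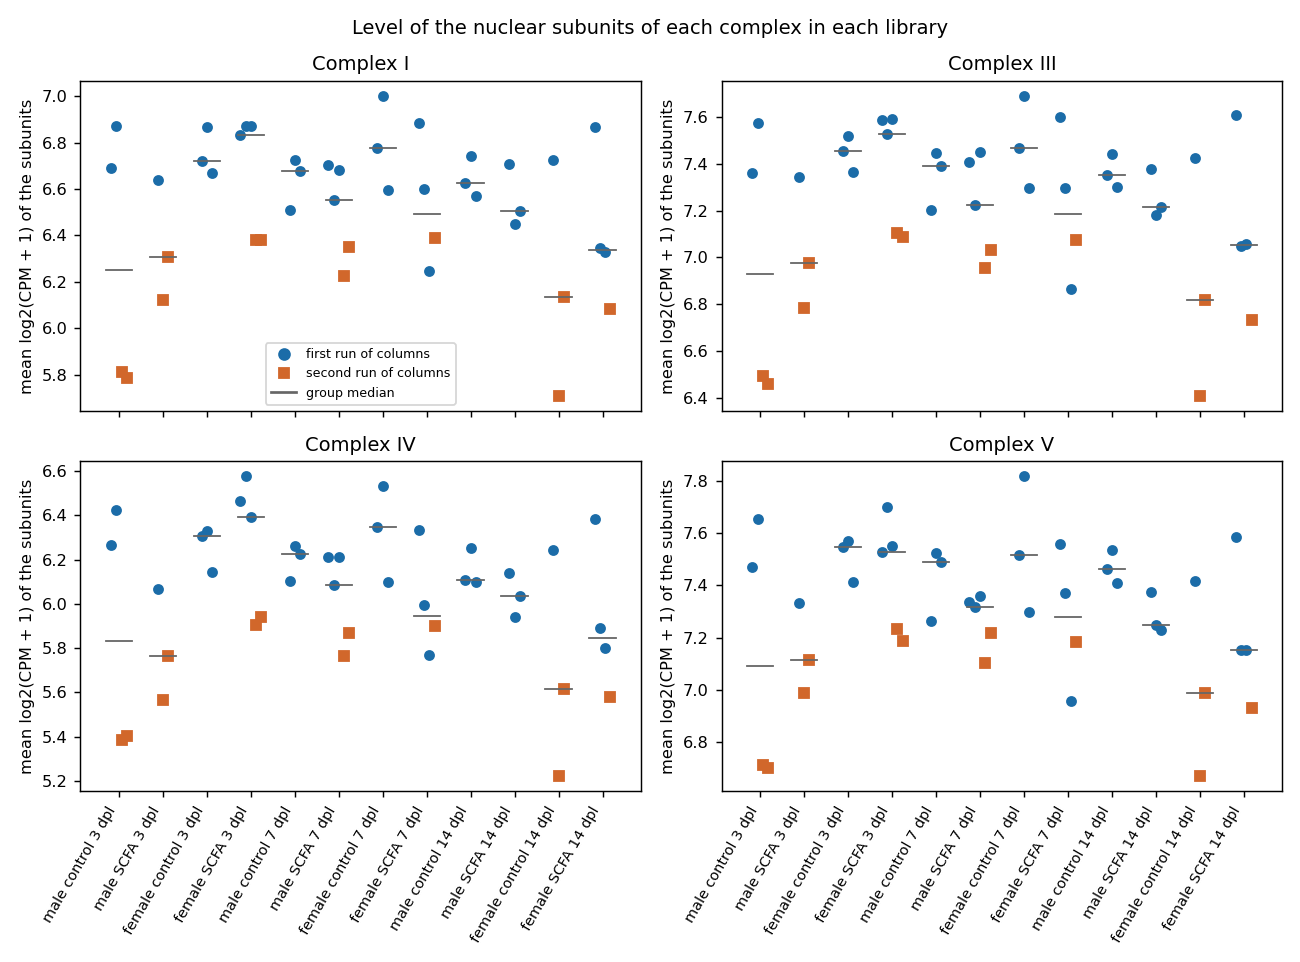
Mean log2(CPM + 1) of the tested subunits of complexes I, III, IV and V in each library, by group, with circles for the first run of columns, squares for the second and a bar for the group median. In all 4 panels the squares lie below the circles of their own group, except in female SCFA 7 dpl, where 1 first-run library lies below the second-run one.

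The column run made the largest difference among all comparisons. Of the 78 tested subunits, 66 were lower and 1 was higher in the second run than in the first by edgeR's quasi-likelihood test with the 12 groups in the model, at a Benjamini-Hochberg adjusted p under 0.1, called here and below. Over all 18197 genes tested, 26.4% were called lower and 25.7% higher. The median log2 difference was −0.55 in complex I (32 of 37 lower), −0.65 in complex III (7 of 8), −0.56 in complex IV (14 of 16) and −0.38 in complex V (13 of 17). Over all members it was −0.54, beside −0.01 over all genes. Cox8b differed most, by −1.56 ± 0.24 (SE), followed by the complex I accessory subunits Ndufb4 at −1.20 ± 0.12 and Ndufa5 at −1.03 ± 0.12. Atp5k differed by −1.02 ± 0.21 and Uqcr11, a very small subunit of complex III whose upstream stretch with GABPA letters is printed above, by −0.97 ± 0.14. Atp5b alone was called higher, by 0.26 ± 0.10 (adjusted p = 0.0352, edgeR). Of the core subunits, Ndufs1 (−0.03), Cox5a (−0.08) and Atp5a1 (0.14) were not called. Omitting the 5 libraries that stand apart left 1 higher and 68 lower.

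The difference was larger in short transcripts. The principal transcript was under 1000 bases in 53 of the 78 members (67.9%) and in 11.7% of 18186 genes with a known length, with medians of 756.5 and 2684.5 bases. Below 500 bases, 8 of 8 members were lower in the second run with a median of −0.83, and 49.8% of all genes of that length were, with a median of −0.52. From 500 to under 1000 bases the figures were 40 of 45 members (median −0.57) and 51.3% of genes (median −0.37). From 1000 to under 2000 bases they were 16 of 20 members (median −0.37) and 39.4% of genes (median −0.16). Above that length, 1 of 4 members to 4000 bases was lower, where 21.5% of genes were, and so was the 1 longer member, Atp5g1, where 11.8% of genes were. The medians of all genes in those classes were 0.02 and 0.14. Across the 78 members the run difference rose with log2 length (Spearman 0.57, Pearson 0.59), a description over genes that share the same libraries. After a smooth trend on transcript length was removed from every library, 49 members were still called lower and 5 higher, with a median of −0.21. Over all genes 23.5% were then called lower and 25% higher. The 76 ribosomal protein genes, also short, were lower in 74 cases with a median of −0.78, and the 13 mitochondrial mRNAs in all 13 with a median of −1.42. What set the runs apart was not tested.

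**Figure D3:**
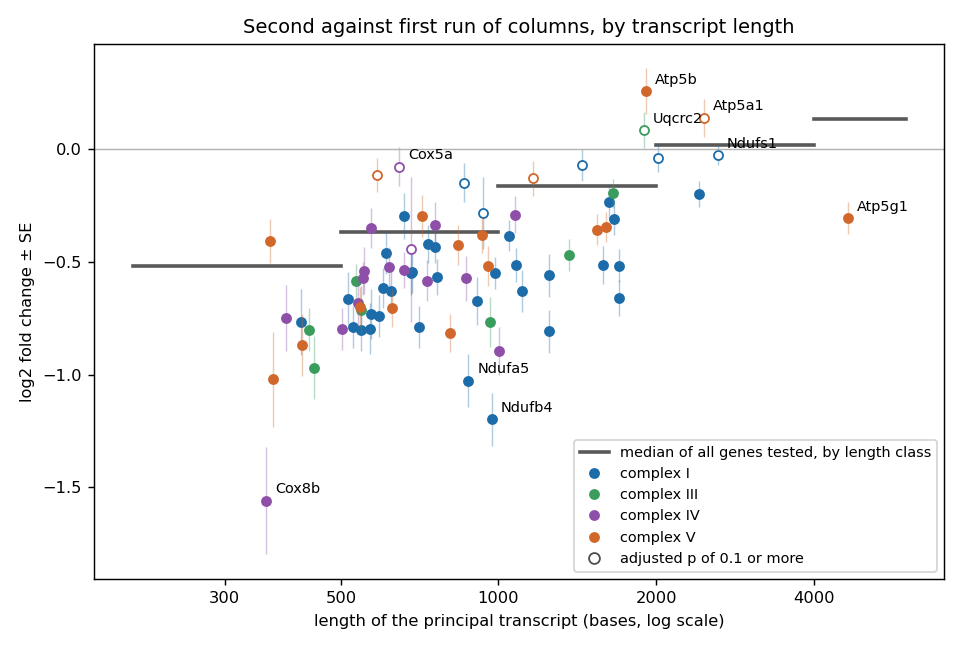
Log2 fold change of each tested subunit between the second and the first run of columns (± SE) against the length of its principal transcript in bases (log scale), coloured by complex, with open circles for an adjusted p of 0.1 or more and bars for the median of all genes of a length class. Most subunits lie below 0 and below the bar of their class, and Atp5b at 0.26 is the only one called above 0.

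Against this background SCFA were compared with controls in each sex and day. Of the single strata, males at 7 dpl had the most called members, 6 of 78 higher and 3 lower, while 13.1% and 9.1% of all genes were, so neither direction held a larger share of members than of genes. At an unadjusted p under 0.05 there were 12 members and 5355 of 18197 genes, beside 15 members and 3849 genes in males at 14 dpl. The median over members was 0.04 on the log2 scale, beside −0.02 over all genes, and complex III had no called member. Ndufb2, an accessory subunit of the complex I membrane arm (chr6:39592574-39603382), had 36.5, 35.1 and 31.6 CPM in the controls. The SCFA libraries had 52.1, 43.6 and 49.2 CPM in the first run and 38.8 and 38.6 CPM in the second. All 5 SCFA libraries lay above all 3 controls, although Ndufb2 shares exon sequence with the predicted gene Gm42420 on its own strand and with Braf on the other, so its counts are less certain. The log2 fold change was 0.44 ± 0.11 (SE; adjusted p = 0.00529, edgeR). Ndufb4, another accessory subunit of that arm (chr16:37647170-37654453), had 64.8, 69.8 and 57.1 CPM in the controls and 140.4, 73.0 and 143 CPM in the first-run SCFA libraries. The second-run SCFA libraries had 43.04 and 51.7 CPM, below the first-run controls, so the groups overlapped. Its log2 fold change with the run as block was 0.85 ± 0.22 (adjusted p = 0.00749, edgeR).

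Ndufa8, an intermembrane-space subunit of complex I, moved the other way. Its controls had 75.7, 97.5 and 95.7 CPM and its SCFA libraries 54.6, 63.7 and 55.5 CPM in the first run and 66.1 and 71.0 CPM in the second. The groups did not overlap, and the log2 fold change was −0.46 ± 0.16 (adjusted p = 0.0443, edgeR). In complex IV the oxygen-linked isoform Cox4i2 had 33.4, 42.2 and 46.3 CPM in controls, 68.2, 45.4 and 66.8 CPM in first-run and 37.1 and 39.7 CPM in second-run SCFA libraries. It was called higher by 0.54 ± 0.17 (adjusted p = 0.0269, edgeR), although the groups overlapped. Cox6b2 had 8.81, 10.1 and 9.53 CPM in controls and 17.3, 12.2 and 14.7 CPM in the first-run SCFA libraries, but 8.51 and 7.24 CPM in the second-run ones, and differed by 0.50 ± 0.19 (adjusted p = 0.0732). Cox5a was lower in all 5 SCFA libraries (55.9, 81.4, 54.2, 81.1 and 83.4 CPM) than in the controls (86.1, 99.8 and 100.3 CPM), by −0.38 ± 0.16 (adjusted p = 0.0991). In complex V, Atp5j, the coupling factor 6, whose gene overlaps Gabpa on the opposite strand, had 162, 176 and 159.5 CPM in controls and 233, 166 and 240.0 CPM in the first-run SCFA libraries, against 120.1 and 132 CPM in the second-run ones. The groups overlapped, and it differed by 0.38 ± 0.16 (adjusted p = 0.0889, edgeR). The other 2 of the 9 called members, named after their values were seen, were the complex I subunits Ndufa5 (0.54 ± 0.22) and Ndufa10 (−0.32 ± 0.12).

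In male SCFA 7 dpl the high values of Ndufb4, Ndufa5, Cox4i2 and Atp5j came from replicates 1 and 3. Those libraries drew 13.8% and 14.8% of their counts from mitochondrial mRNAs, against 7.65% in replicate 2, 3.88% and 3.74% in replicates 4 and 5, and 5.59% to 6.14% in controls. Summed Müller glia markers stood at 9741 and 11442 CPM there, and at 4994 to 6852 CPM in the other libraries of both groups, and 4 of the 8 markers were called higher. Rod markers summed to 70032 and 57059 CPM in the same replicates and to 85743 CPM or more in the rest, and 1 of 10 was called lower. Microglia markers summed to 76.4 to 129 CPM with SCFA and to 116 to 162 CPM in controls, with 3 of 10 called lower, and none of the markers of these 3 lists was at 0. Their part in the subunit values was not tested. With the 5 libraries that stand apart omitted, Ndufb2 alone was called (0.37 ± 0.11, adjusted p = 0.0676, edgeR). Ndufb4 then had 0.56 ± 0.24, Cox4i2 0.35 ± 0.18 and Ndufa8 −0.28 ± 0.15. Leaving out SCFA replicate 1 or 3, or control replicate 2 or 3, gave 3 higher and 0 lower. Leaving out control replicate 1 gave 2 higher and 4 lower, and the other single omissions gave 9 to 11 called members. The study itself compared SCFA replicates 2, 4 and 5 with the 3 controls, and those libraries fitted alone, without a block, gave 0 members higher and 26 lower, with a median of −0.25, where 8.47% of genes were called lower. In that fit replicates 4 and 5 were the only libraries of the second run.

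In males at 14 dpl all 6 libraries were of the first run, and the alpha and beta subunits of ATP synthase were called lower with SCFA. Of 78 members 1 was called higher and 3 lower, against 3.28% and 3.86% of genes, again no larger a share than among all genes, with a median of −0.09 beside 0.01 over all genes. Atp5b (chr10:128083273-128090391) had 1709.6, 1677 and 1514 CPM in the controls and 809.7, 1269 and 990.3 CPM with SCFA. Atp5a1 had 980.4, 951 and 845 CPM in the controls and 519.96, 762 and 609.8 CPM with SCFA. Neither gene's groups overlapped, with the reservation that Atp5a1 overlaps Haus1 on the opposite strand. The log2 fold changes were −0.68 ± 0.21 for Atp5b (adjusted p = 0.0676) and −0.55 ± 0.17 for Atp5a1 (adjusted p = 0.0712, edgeR). Cox7a2l had 254, 282 and 241 CPM in the controls and 173, 196 and 169 CPM with SCFA, also without overlap, and differed by −0.53 ± 0.17 (adjusted p = 0.0741, edgeR). Ndufb2 was the member called higher, with 35.5, 29.8 and 30.9 CPM in the controls and 44.9, 41.6 and 40.9 CPM with SCFA. Every SCFA library lay above every control, and the difference was 0.40 ± 0.12 (adjusted p = 0.0613, edgeR). The major isoform Cox4i1 had 448, 505 and 459.8 CPM against 331, 349.9 and 299.5 CPM, a log2 difference of −0.53 that was not called. The calls depended on single libraries. Leaving out control replicate 1 or 2, or SCFA replicate 1 or 3, left 0 called members, leaving out control replicate 3 left 2 lower, and leaving out SCFA replicate 2 gave 1 higher and 6 lower. The same 6 libraries fitted alone gave 3 higher and 16 lower members, where 12% and 12.6% of genes were called, with Atp5b at −0.67 ± 0.15 and Ndufb2 at 0.41. Microglia markers summed to 99.3 to 104 CPM in the controls and 60.04 to 84.7 CPM with SCFA, with 1 of 10 called lower, and mitochondrial mRNAs took 4.71% to 5.43% and 4.86% to 7.91% of counts. Their part in these differences was not tested.

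Averaged over the 6 strata of sex and day, 13 members were called higher and 9 lower with SCFA, against 17.7% and 17% of all genes. The median was 0.00 over members and over genes, and neither share called exceeded that of all genes. Complex I gave 7 higher and 2 lower members, complex III 1 and 0, complex IV 3 and 4, and complex V 2 and 3. Ndufb2 was higher by 0.23 ± 0.05 (adjusted p = 0.000253) and Ndufb4 by 0.42 ± 0.09 (adjusted p = 0.000721, edgeR). The group means of Ndufb2 were 38.8 against 35.5 CPM in males and 39.3 against 37.3 CPM in females at 3 dpl, 44.4 against 34.4 CPM and 44.2 against 38.5 CPM at 7 dpl, and 42.5 against 32.1 CPM and 39.0 against 37.1 CPM at 14 dpl, SCFA first. With the run as block its log2 difference was above 0 in every stratum except females at 14 dpl (−0.01).

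Also higher on average were Atp5s (0.21 ± 0.05, adjusted p = 0.00413, edgeR), Atp5j (0.24 ± 0.07), Uqcrb, the ubiquinone-binding protein of complex III (0.17 ± 0.06), Cox7b (0.24 ± 0.09), Cox4i2 (0.18) and Cox6b1 (0.16). Atp5b was lower by −0.32 ± 0.08 (adjusted p = 0.00249, edgeR) and below 0 in 6 of 6 strata. In females it differed by only −0.01 ± 0.20 at 14 dpl and −0.14 ± 0.19 at 3 dpl. Of the single strata, males at 14 dpl alone had it called. Its female controls at 7 dpl ran from 911 to 1911 CPM and include the library with Y-linked transcripts. Its group means, SCFA first, were 1141 against 1296 CPM in males and 1208 against 1234 CPM in females at 3 dpl, 1039 against 1295 and 1058 against 1349.9 at 7 dpl, and 1023 against 1633 and 1065 against 1164 at 14 dpl. Cox7a2l (−0.21 ± 0.06), Ndufb6 (−0.26 ± 0.08), Atp5a1 (−0.20 ± 0.07), Atp5mpl, a small proteolipid of complex V (−0.23 ± 0.08), Cox4i1 (−0.21 ± 0.08) and Cox5a (−0.18) were lower as well. Ndufs1 rose by 0.10 ± 0.03 (adjusted p = 0.0246, edgeR), a small change in the member with the least spread. All 13 members called higher were called again with the 5 libraries that stand apart omitted, when 16 were higher. Of the 9 lower members Atp5b alone was, when 2 were lower. Without the run as block the counts were 2 higher and 11 lower, where 12.3% and 12.01% of genes were called. With the length trend removed they were 11 higher and 20 lower, where 17.6% and 19.5% of genes were. Leaving out female SCFA 14 dpl replicate 1 gave 8 higher and 13 lower, and leaving out male SCFA 14 dpl replicate 1 gave 8 and 8. Leaving out female control 14 dpl replicate 2 gave 7 higher and 12 lower, and leaving out female control 7 dpl replicate 2 gave 16 and 6. Lens markers were called higher in 9 of 12 cases in the same average, Müller glia markers in 4 of 8, and microglia markers were lower in 4 of 10, and their part was not tested.

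**Figure D4:**
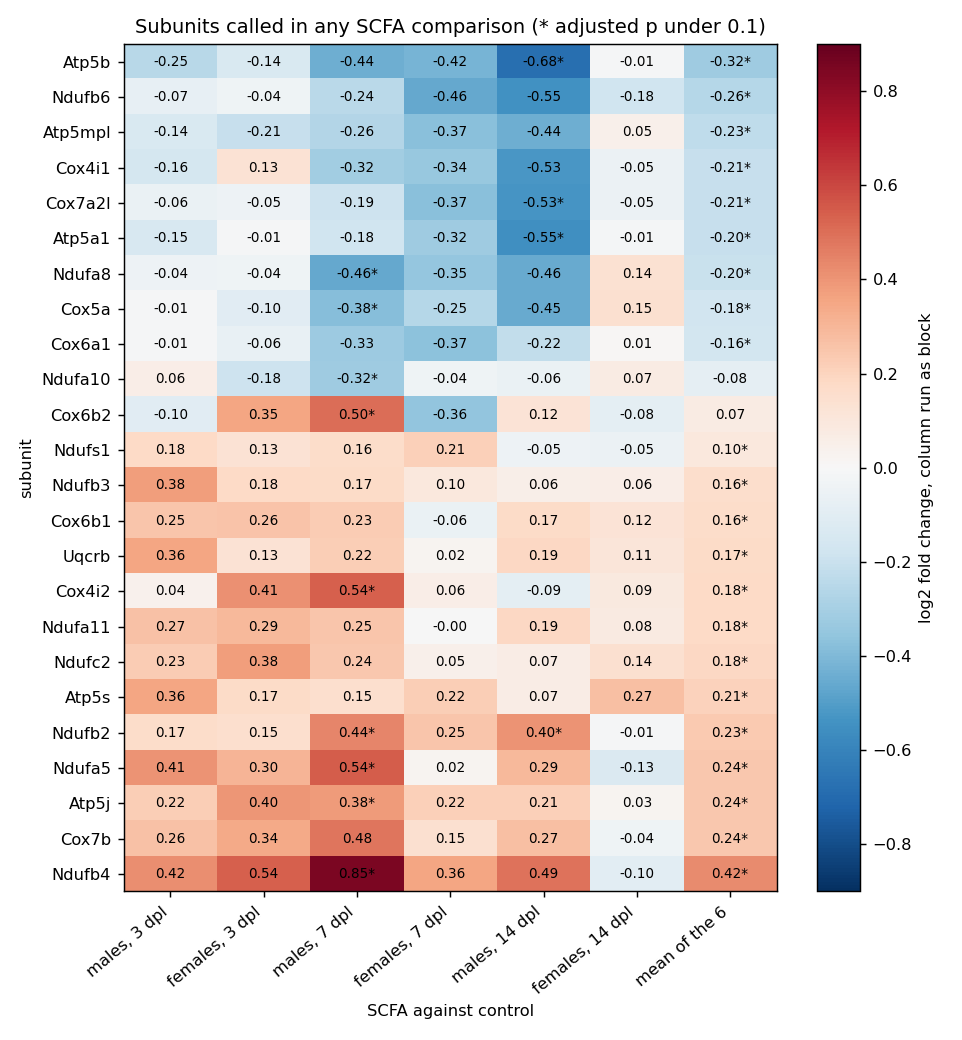
Log2 fold change of SCFA against control, with the column run as block, for the 24 subunits called in any SCFA comparison, in the 6 strata and their mean, red for higher and blue for lower. Ndufb4 reaches 0.85 in males at 7 dpl and Atp5b −0.68 in males at 14 dpl, and an asterisk marks an adjusted p under 0.1.

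In females at 14 dpl the result depended on which libraries were fitted. With the run as block no member was called by edgeR (0% of genes were), DESeq2 called 0, and the median was 0.00. At an unadjusted p under 0.05 there was 1 member, beside 529 of 18197 genes. All libraries without the block gave 0 called members as well, with a median of 0.20. Control replicate 1 and SCFA replicates 1 to 3 were of the first run, and control replicates 2 and 3 and SCFA replicate 4 of the second. Atp5k had 119 CPM in the first-run control and 32.4 and 44.3 CPM in the second-run controls, and 125, 79.7 and 67.4 CPM in the first-run SCFA libraries and 47.6 CPM in the second-run one. Ndufb4 had 109, 28.5 and 38.2 CPM in the controls and 122, 62.9, 54.6 and 38.8 CPM with SCFA in the same order. Both genes split by run within the controls and within the SCFA group. Uqcr10, a small subunit of complex III, had 125, 47.8 and 62.2 CPM in the controls and 133, 82.0, 81.5 and 55.3 CPM with SCFA. Cox7b had 176, 53.1 and 77.95 CPM in the controls and 186, 109, 99.6 and 82.2 CPM with SCFA. In contrast Ndufs1 had 114, 105 and 111 CPM in the controls and 108, 102, 109 and 108 CPM with SCFA. Its first-run control was again the highest, but close to the others. With SCFA the second-run library lay within the range of the first-run ones.

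The study compared SCFA replicates 1 to 3 with control replicates 2 and 3 in this stratum, and since the former are all of the first run and the latter of the second, the effect of SCFA cannot be told apart from that of the run. Those 5 libraries fitted alone gave 42 of 77 tested members higher and 0 lower, with a median of 0.64, where 8.4% of genes were called higher. The 42 were 21 of complex I, 6 of complex III, 8 of complex IV and 7 of complex V. The log2 fold change was 1.26 ± 0.26 for Atp5k, 0.96 ± 0.23 for Ndufa11, 1.28 ± 0.33 for Ndufb4, 0.86 ± 0.23 for Uqcr10 and 1.02 ± 0.28 for Cox7b, with adjusted p between 0.0556 and 0.0697 (edgeR). In the fit of all 43 libraries with the run as block the same quantity was 0.01 ± 0.41 for Atp5k, 0.08 ± 0.18 for Ndufa11 and −0.10 ± 0.22 for Ndufb4. Atp5b (−0.31) and Atp5a1 (−0.18) were lowest of all members in the study's libraries.

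**Figure D5:**
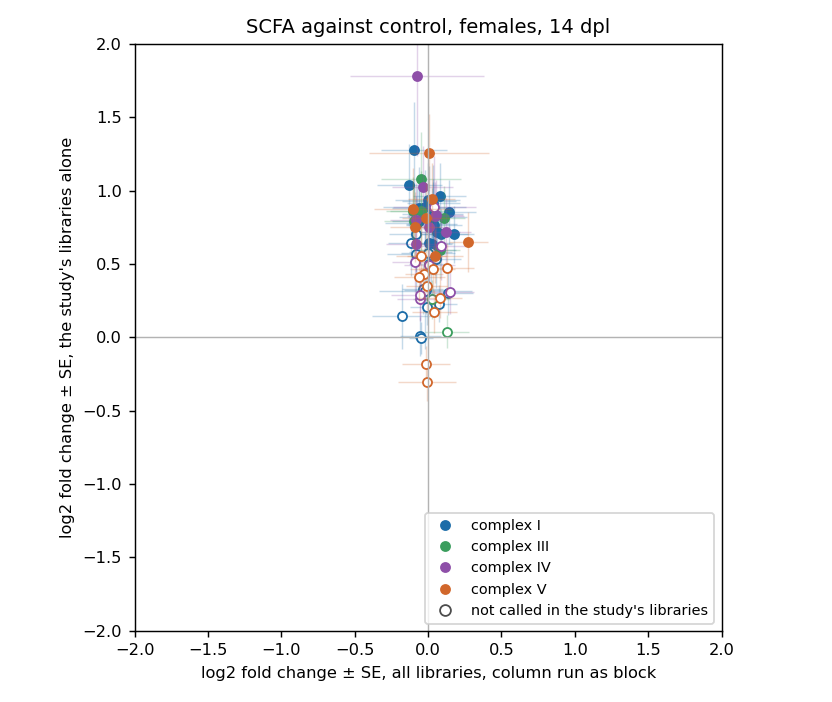
Log2 fold change of SCFA against control in females at 14 dpl (± SE) for each tested subunit, in all libraries with the column run as block (x axis) and in the study's 5 libraries alone (y axis), coloured by complex. The points stand in a narrow column around 0 on the x axis and spread from −0.31 to 1.78 on the y axis, and filled points are the 42 called in the study's libraries.

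The other strata gave no called member by edgeR. In males at 3 dpl 0.022% of genes were called and DESeq2 called 0 members, with a median of 0.11. An unadjusted p under 0.05 was held by 4 members and by 1981 of 18197 genes. In females at 3 dpl 8.11% of genes were called and DESeq2 called 2 members, with a median of 0.15. An unadjusted p under 0.05 was held there by 7 members and by 3904 genes. Cox8b came closest there, with 5.12, 3.54 and 4.803 CPM in the controls, 9.99, 16.5 and 7.03 CPM in the first-run and 2.63 and 3.12 CPM in the second-run SCFA libraries. The groups overlapped, and the difference was 1.18 ± 0.42 (adjusted p = 0.103, edgeR). Its highest value was that of replicate 2, the library with the lens markers, all 12 of which were called higher in this stratum. Replicate 1, the library with muscle markers, had the highest level of the muscle isoform Cox6a2, 3.01 CPM. Omitting both with the other libraries that stand apart left 0 called members. In females at 7 dpl 0.643% of genes were called and DESeq2 called 1 member, with a median of −0.15. An unadjusted p under 0.05 was held by 9 members and by 2875 genes. Without the library that held Y-linked transcripts the median was 0.01 and again 0 members were called, while without control replicate 3 the counts were 1 higher and 8 lower.

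One value in females at 7 dpl stood far off and is named after it was seen. Atp5k had 5.67 CPM in SCFA replicate 3, against 63.0 to 122 CPM in the other SCFA libraries, 86.0 to 107 CPM in the controls and 32.4 CPM or more in every other library. The same library had 24.9 CPM of Ndufa1, a small membrane subunit of complex I, against 65.1 to 109 CPM in the rest of its group, 39.3 CPM of Uqcr11 and 67.3 CPM of Atp5e, the epsilon subunit.

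The remaining comparisons gave 1 called member. Among controls, male against female, 0.0495% of genes were called at 3 dpl and 0.0275% at 7 dpl, with 0 members by edgeR and by DESeq2 on either day. At an unadjusted p under 0.05 there were 4 and 1 members, beside 941 and 694 of 18197 genes. The medians over members were −0.17 and −0.15. At 7 dpl the female controls include replicate 2, the library with Y-linked transcripts. In the study's libraries for that comparison, which omit it and male control replicate 1, the median was 0.02. The comparisons over days in controls and the interaction at 7 dpl, given below, also hold that female library. At 14 dpl, where 1.53% of genes were higher and 3.13% lower in males, Atp5b was the called member. Male controls, the same libraries as in the SCFA comparison at that day, had 1709.6, 1677 and 1514 CPM, and female controls 929.6 CPM in the first run and 1196 and 1366 CPM in the second. The groups did not overlap, and the difference was 0.67 ± 0.22 (adjusted p = 0.0911, edgeR). The call was lost on leaving out any of the 6 libraries, which gave 0 called members each time. DESeq2 called 6 members higher and 1 lower, without the share of all genes beside it, so that count gives no result about the members. From 3 to 7 dpl and from 7 to 14 dpl in controls, averaged over sexes, 0% of genes and 0 members were called by edgeR. DESeq2 called 0 members, and the medians were 0.06 and −0.13. An unadjusted p under 0.05 was held by 1 and 5 members, beside 1191 and 1701 of 18197 genes. The difference of the SCFA response between males and females was tested as an interaction at each day, again with 0% of genes and 0 members called by edgeR or DESeq2. At an unadjusted p under 0.05 it had 2, 1 and 8 of 78 members at 3, 7 and 14 dpl, beside 2296, 1332 and 1822 of 18197 genes. The medians over members were −0.02, 0.17 and −0.11. A difference between the sexes in the response of these genes was thus not shown at this depth and number of libraries.

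Other genes of the pathway were followed as lists, whose counts are to be read against all genes, of which 13.1% were called higher and 9.1% lower in males at 7 dpl, and 17.7% and 17% on average over strata. Most of the lists are short, so 1 gene more or less moves their share. The 13 mitochondrial mRNAs were higher with SCFA in 12 cases in males at 7 dpl, with a median of 1.11, and in 12 on average over strata, with a median of 0.49. Among 6 genes of complex II and the electron carriers, Cycs, cytochrome c, was higher (0.41) and Cyc1, the cytochrome c1 of complex III, lower (−0.48) in males at 7 dpl. Cyc1 was also lower in males at 14 dpl (−0.48). Assembly factors of complex IV were called in both directions in males at 7 dpl, 4 higher and 4 lower of 19 tested. The copper chaperone Cox17 was higher by 0.92 and Cox11, which delivers copper to the catalytic core, lower by −0.97 in that stratum. Averaged over strata Cox17 was higher by 0.58 ± 0.10 and Cox11 lower by −0.64 ± 0.12, and 5 of the 19 were called in each direction. Of 14 complex I assembly factors 2 were higher and 1 lower in males at 7 dpl, with Ndufaf2 at 0.45 and Foxred1 at −0.68. Of 6 complex III factors 2 were higher and 1 lower, with Uqcc2 at 0.61, and of 4 ATP synthase factors Atpaf2 was lower (−0.51). Among 14 regulators 5 were higher and 3 lower in males at 7 dpl, among them Gabpa (0.51), Ppargc1a (0.63) and Esrrg (0.94), against Esrrb (−0.42) and the mitochondrial RNA polymerase Polrmt (−0.46). On average 6 were higher and 4 lower, with Gabpa at 0.19 and Nrf1 at −0.20. Gabpa overlaps the member Atp5j on the opposite strand, so without a stated strand these genes may share reads. Of the 76 ribosomal proteins 4 were higher in males at 7 dpl and 2 higher and 1 lower on average. Male SCFA 7 dpl replicates 1 and 3, described above, entered all of these comparisons in males at 7 dpl and the averages over strata. The mitochondrial mRNAs also differed strongly between the column runs. For the lists, averages without these replicates or without the run as block are not given here.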

How the data were processed

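RNA of 43 pooled retinal libraries was sequenced, and the authors deposited raw read counts per gene, without normalization. The submitters' processing notes name the build mm10 and DESeq2, while the aligner, counter and strand setting are not given in the sources used here. Genes were named from GENCODE M21. Without a stated strand, 26 members that overlap another gene on the opposite strand, and 6 on the same strand, may share reads with it, and how reads shared with pseudogenes were assigned is not given in the sources used here. Groups came from sample titles, since the treatment label reads control for every sample. Genes were kept by filterByExpr over the 12 groups, scaled by TMM, and tested in 1 fit of 43 libraries (12 groups plus the column run) by edgeR 4.0.16 (limma 3.58.1, R 4.3.3), quasi-likelihood test, adjusted by Benjamini-Hochberg over all genes tested. Called means an adjusted p under 0.1. The SE is the log2 fold change divided by the square root of F. Alternatives included DESeq2 1.42.0, other filters and scalings, a lowess trend on transcript length (span 0.3), no block, and each library left out. P-values measure the spread between pooled libraries. Scripts were tested on simulated data and used Python 3.11.15, numpy 2.4.6, pandas 2.3.3, scipy 1.17.1 and matplotlib 3.10.9.

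Named were up to 3 called members per complex and comparison by smallest adjusted p, isoform sets, core subunits, and the highest and lowest level per kilobase in each complex. Other called members and examples were named after their values were seen. The members and lists were chosen with earlier results of these data known. No 2 libraries of a group agreed within sampling noise, with a chi-square per gene of at least 3.59. The values of 1 core subunit are not reported here.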

Additional observations from a re-analysis of the deposited data

Results flagged for a closer look

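In the 5 groups of 4 or 5 libraries, 1 library's distance from its nearest neighbour was set against the range of its group for 37 measures. Of 185 such pairs of group and measure 14 passed Dixon's 95% limit, where chance passes about 1 in 20. That rate holds for independent measures in 1 population, whereas all 5 groups mix libraries of both column runs and the measures move together. In female SCFA 14 dpl, replicate 1 was highest in Ndufa8 (73.3 against 62.8 to 63.7 CPM, ratio 0.9181), Cox5a (91.5 against 75.7 to 77.1, ratio 0.9092), Ndufb6 (43.4 against 25.0 to 27.6, ratio 0.8591), Atp5g2 (97.2 against 77.6 to 80.8, ratio 0.8347) and Ndufv1 (253 against 182 to 193, ratio 0.8343). In the same group replicate 2 was lowest in Ndufs1 (102 against 108 to 109, ratio 0.9256). In female SCFA 7 dpl, replicate 3 was highest in Uqcrc2 (158 against 125 to 127 CPM, ratio 0.9272) and lowest in Atp5a1 (563 against 651 to 668, ratio 0.8368), and replicate 1 was highest in Ndufb2 (51.6 against 41.4 to 42.2, ratio 0.9178). In female SCFA 3 dpl, replicate 2, the library with lens markers, was highest in Cox4i1 (639 against 341 to 399 CPM, ratio 0.8048) and Atp5g2 (128 against 87.7 to 99.0, ratio 0.7238). Replicate 1 of that group, the library with muscle markers, was highest in Cox6a2 (3.01 against 0.273 to 0.909 CPM, ratio 0.7677). In male control 3 dpl, replicate 2 was highest in Cox6b2 (13.6 against 7.96 to 8.60 CPM, ratio 0.8867), and in male SCFA 7 dpl, replicate 2 was highest in Ndufa4l2 (2.68 against 1.39 to 1.66 CPM, ratio 0.7884).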

How the results depend on the processing

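Counts of called members are given as higher and lower together. For most alternatives and leave-one-out fits, here and above, the share of all genes called is not given. Such counts describe how the calls moved with the processing and give no result about the members. With 78 members tested, 9 were called in males at 7 dpl, and 3 without the run as block, 26 in the study's libraries alone, 4 at an adjusted p under 0.05, 0 with an absolute log2 fold change over 1, and 1 with the 5 libraries that stand apart omitted, an alternative chosen after seeing the data. In the study's libraries Ndufb4 (−0.18), Cox6b2 (−0.011) and Atp5j (−0.24) had the opposite sign, and SCFA replicates 1 and 3 were not among them. In males at 14 dpl 4 were called, and 12 without a filter, 12 with the length trend removed, 0 without the run as block, 1 in the first run alone, 19 in the study's libraries, and 0 under each stricter threshold. On average over strata 22 were called, and 13 without the run as block and 0 with the fold threshold. In females at 3 dpl 0 became 4 without a filter, 1 with at least 10 counts in every library, 1 in the first run alone, 3 with the length trend removed and 2 by DESeq2. In females at 7 dpl 0 became 2 without a filter and 1 by DESeq2, and in females at 14 dpl 42 in the study's libraries. Between male and female controls at 14 dpl 1 became 8 without a filter, 3 with at least 10 counts, 2 without the run as block, 2 with the length trend removed, 7 by DESeq2, and 0 in the study's libraries and under each stricter threshold. At 7 dpl 0 became 1 without a filter and 1 in the study's libraries. Without a filter 1 was called from 7 to 14 dpl and in the interactions at 3 and 7 dpl. The run difference fell from 67 to 4 with the fold threshold, and its alternatives were all chosen after seeing the data. The cause of these changes was not tested.

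Leaving out 1 library at a time gave 3 to 11 in males at 7 dpl, 0 to 7 in males at 14 dpl, 16 to 25 on average, 0 to 1 in females at 3 dpl, 0 to 9 in females at 7 dpl, 67 to 68 between runs, and 0 to 0 in the other comparisons, male against female controls at 14 dpl included. On average over strata Ndufb2, Ndufb4, Ndufb6, Ndufa8, Ndufs1, Uqcrb, Cox7a2l, Cox7b, Atp5s, Atp5j, Atp5b, Atp5a1 and Atp5mpl were called in all 43 of these fits. Of these, Ndufb2 and Atp5b alone were also called in all 8 alternative fits of this average. Ndufb4, Atp5s, Atp5j, Cox7b and Uqcrb lost the call without the run as block. Atp5a1, Atp5mpl, Cox7a2l, Ndufa8 and Ndufb6 lost it with the 5 libraries that stand apart omitted, and Ndufs1 without a filter. The complex scores moved by less than their replicate spread with a pseudocount of 0.1.

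Replicate numbers are given in the labels, but the 18 pairs of SCFA and control libraries of the same number, sex and day had a mean correlation of 0.016 (−0.169 to 0.155) and were not taken as pairs. With the replicate block beside the run, 1 member was called in females at 3 dpl, 9 in males at 7 dpl, 7 in males at 14 dpl, 21 on average and 0 between male and female controls at 14 dpl.

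Depth limited low members most, such as Cox6a2 and Ndufa4l2. Most groups had 3 libraries. In females at 3 and 7 dpl and males at 7 dpl the SCFA arm alone had second-run libraries. Transcript length, the run and the other libraries' cell markers moved with the members' levels, and their part was not tested.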
